A study of Citrus unshiu with 2 samples.

Results

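RNA came from Citrus unshiu, the satsuma mandarin grown for seedless fruit. Described here are 35 nuclear gene models whose deposited descriptions name a ribosomal protein, a translation initiation factor, an elongation factor or a tRNA ligase. They were found by text among 2568 genes that have descriptions, out of 23159 gene models, and names with kinase or methyltransferase were left out, which removed 1 gene. Of the 35, 19 are named as chloroplast proteins and 16 are not. Expression was measured by RNA-seq in mature stems of wild-type trees grown in containers under a rain-proof tunnel. One group had normal water and the other had a water deficit, called light drought, until the soil had dried to about 15% moisture, and both were sampled at Day 75. Each group has 1 library, and the labels do not state how many trees it holds. Differences below therefore have no replicate check, and no p-value was computed.

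A plant cell makes protein in the cytosol, in chloroplasts and in mitochondria, each with ribosomes of its own. Chloroplast ribosomes are of the bacterial type, and most of their proteins are encoded in the nucleus, made in the cytosol and imported. They translate the few genes that the chloroplast keeps, among them core subunits of the photosystems and the large subunit of Rubisco. Initiation factors bring the subunits and the start codon together, elongation factors move the ribosome along the message, and tRNA ligases load each tRNA with its amino acid.

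The label fits most of the 35. The Gene Ontology text of 20 gives them as structural constituents of the ribosome, and 16 carry the KEGG term Ribosome, of which 12 are named as chloroplast proteins. A pair of members are no part of translation by their names. The stress-related protein (Cs5g32970) was matched by the Pfam family of the rubber elongation factor, proteins of lipid particles, and the 13 kDa ribonucleoprotein-associated protein (Cs2g28690) is a spliceosome protein of a family shared with a ribosomal protein. The RefSeq description alone matched 24 members, and the other 11 were matched through UniProt or Pfam text.

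The control library held 32856618 reads assigned to genes and the light drought library 31760704. Levels are given as RPKM, a read count divided by exon length and by the library total. The difference is log2((light drought + 0.5)/(control + 0.5)) on RPKM, called the log2 ratio, which understates the change of genes with low levels. A gene was kept at RPKM of at least 1 in either library, and was counted as higher or lower when the log2 ratio passed 2-fold. Intervals are exact 95% conditional intervals of the RPKM ratio from the reads behind it, without the pseudocount, and cover counting error only. Of the 35 members 32 were kept.

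All 19 chloroplast-named members had higher RPKM in the light drought library, each by less than 2-fold, while the 13 kept members without that name split into 6 above and 7 below the control. In all, 25 of the 32 kept members had log2 ratios above 0, against 50.4% of the 15654 kept genes and 43.6% of the 2055 kept described genes. None of the 32 was 2-fold higher, where 0.882% of all kept genes and 5.99% of kept described genes were. Those 2-fold lower were 2 of the 32, against 2.12% of all kept genes and 14.9% of kept described genes. The counting interval lay above 0 for 24 and below 0 for 6 of the 32, against 25.4% and 25% of all kept genes. Among kept described genes it lay above 0 for 35.6% and below 0 for 47.3%. It lay above 0 for 18 of the 19 chloroplast-named members, against 69.8% of the 149 other kept genes with chloroplast in their descriptions. The median log2 ratio was 0.49 for the chloroplast-named members and -0.03 for the other 13, against 0.0024 for all kept genes and -0.23 for the kept described genes. In bulk stems, fewer cells of a type and less RNA per cell cannot be told apart.

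**Figure D1:**
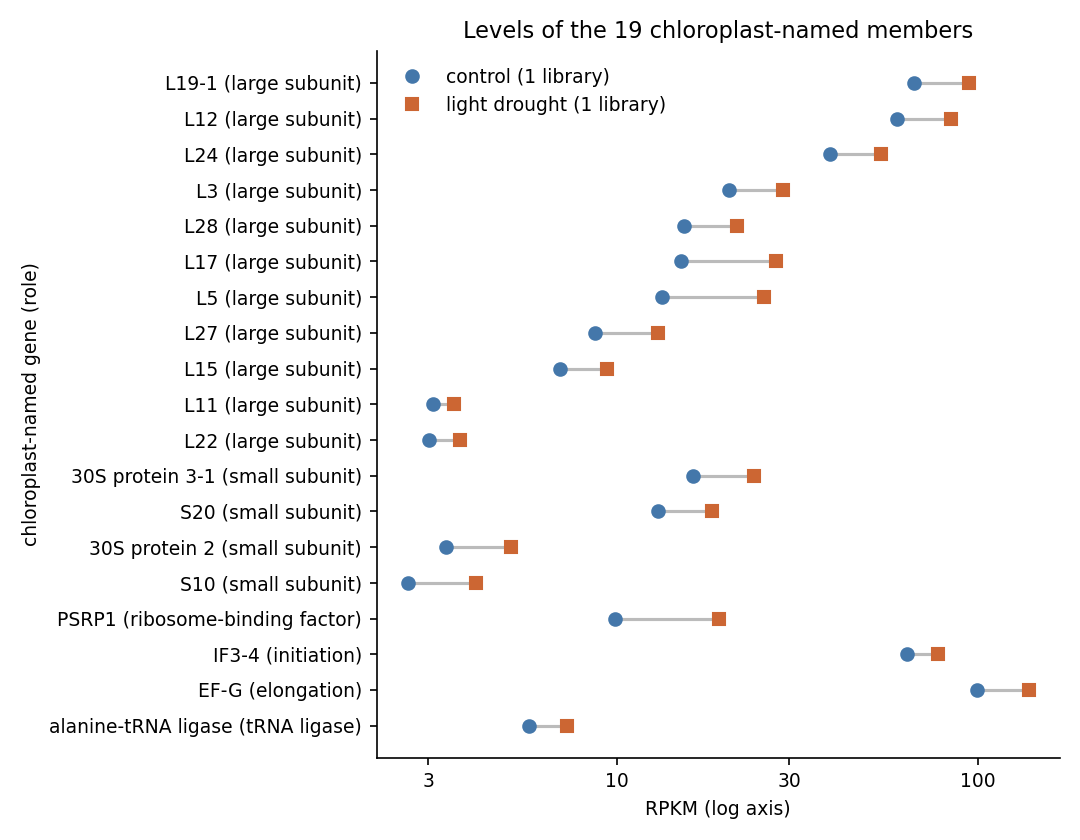
RPKM (log axis) of the 19 chloroplast-named members in the control library (circles) and the light drought library (squares), 1 library each, grouped by role and sorted by control level within a role. Every square lies to the right of its circle, and the levels run from 2.63 (S10) to 99.7 (EF-G) in the control.

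The table the members were drawn from holds few genes with equal levels in both libraries, which bears on these counts. Its name calls the genes differential, so the listing may itself rest on these values, and the counts of members are descriptions. Log2 ratios between -0.2 and 0.2 were found for 10.4% of the kept described genes and for 63% of the 13599 kept genes outside that table. Ribosomal proteins outside it carry no description in the files and were not assessed, so the 35 are not the whole translation machinery, and those with little difference may be missing from it. Within the table, 75.8% of the 149 other kept genes with chloroplast in their descriptions had ratios above 0, with a median of 0.45. The chloroplast-named members thus lay close to other described chloroplast genes in their median, and no gene of the 19 was below 0, where 36 of the 149 were. Of the 19, 16 lay between the quartiles of those 149 genes, 0.07 and 0.64, with 3 above and 0 below.

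**Figure D2:**
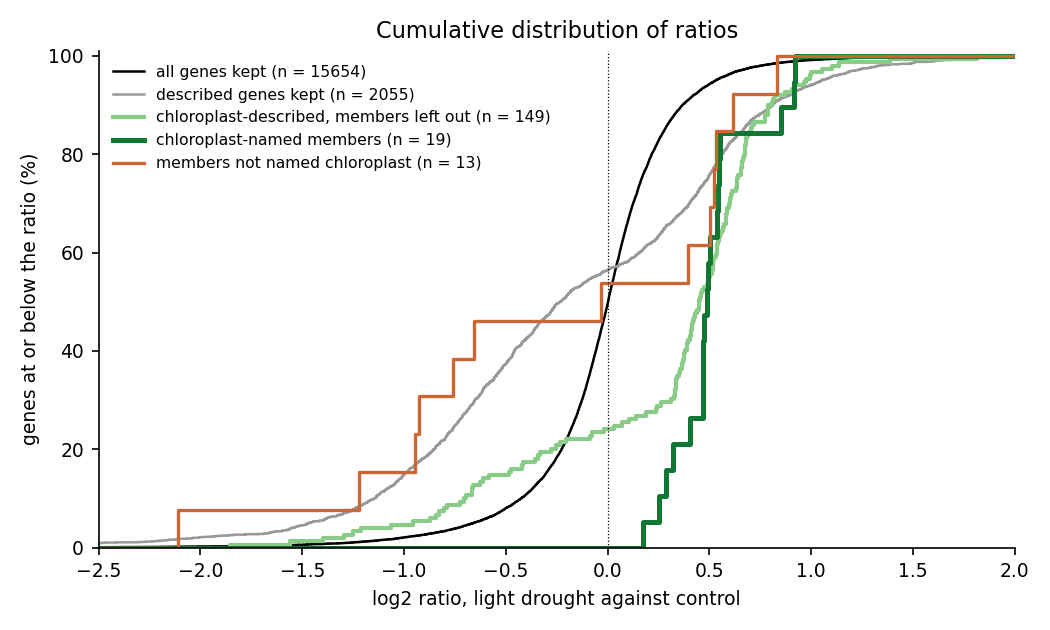
Share of genes (%) at or below each log2 ratio of light drought against control, for all kept genes, kept described genes, chloroplast-described genes without the members, and the members with and without a chloroplast name. The line of the 19 chloroplast-named members starts at 0.17 and ends at 0.92, close to the upper part of the line of the 149 other chloroplast-described genes.

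The large subunit of the chloroplast ribosome is represented by 11 proteins, all with ratios above 0 and none 2-fold higher. Their median log2 ratio was 0.49, and 7 of them lay between 0.4 and 0.6, where 5.13% of all kept genes and 28.2% of the other chloroplast-described genes lay. The most abundant was L19-1 (Cs5g07930, chromosome 5, 5168683 to 5171501), a protein of the face between the subunits in bacteria, at RPKM 94.2 in light drought against 66.4 in the control. The log2 ratio of L19-1 was 0.50, with a counting interval of 0.46 to 0.56 from 7805 and 5688 reads. L12 (Cs2g27960, chromosome 2, 27666981 to 27667911), a single-exon gene for the stalk protein that recruits translation factors, stood at 84.2 against 59.8 (0.49, interval 0.41 to 0.58). L24 (Cs4g12160), known in bacteria for starting assembly of the large subunit, stood at 53.9 against 38.8 (0.47). These 3 genes had the highest levels of the large subunit group in both libraries, and their log2 ratios ran from 0.47 to 0.50.

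The ratios of L17 and L5 stood above those of the other large subunit proteins. L5 (orange1.1t00409, unplaced sequence, 5485628 to 5487800), which in bacteria binds the smallest RNA of the large subunit, was at RPKM 25.6 in light drought against 13.3 in the control. This gave a log2 ratio of 0.92, with a counting interval of 0.78 to 1.1 from 934 and 503 reads. L17 (Cs6g10620, chromosome 6, 12110531 to 12111722), a protein near the exit of the peptide tunnel in bacteria, was at 27.5 against 15.0. This gave a log2 ratio of 0.85, with an interval of 0.72 to 1.03. Both intervals lie above those of L19-1, L12, L24, L3 (interval up to 0.62) and L28 (up to 0.65), and both lie above that of L27 (0.45 to 0.71). The intervals leave out differences between trees, so the spread between the large subunit genes has no replicate error to be set against.

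Of the other large subunit proteins, L3 (Cs7g16040), an early assembly protein close to the peptide-forming centre, stood at RPKM 28.8 against 20.4 (log2 ratio 0.49). L28 (Cs9g09680) stood at 21.4 against 15.4 (0.47), and L27 (Cs2g25420), which in bacteria reaches into the peptide-forming centre, at 13.0 against 8.70 (0.55). L27 shares 441 exon bases with a model on the other strand, Cs2g25430, whose log2 ratio was -0.06. L15 (Cs2g12550), a late assembly protein in bacteria, stood at 9.39 against 6.96 (0.41, interval 0.23 to 0.64).

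The lowest ratios of the group belonged to the genes with the lowest levels, L22 and L11. L22 (Cs9g05510), which lines the peptide tunnel in bacteria, stood at RPKM 3.68 against 3.01 (log2 ratio 0.25, interval 0.05 to 0.53). L11 (Cs5g01230, chromosome 5, 226508 to 229716), which with L12 forms the site where factors act, stood at 3.54 against 3.08. Its log2 ratio was 0.17 and its interval of -0.08 to 0.48, from 221 and 199 reads, included 0, the only such interval among the 19. Over the 19 genes together, ratio and mean level were only weakly related, with Pearson's r of 0.17 and Spearman's rho of 0.16 across genes of the same pair of libraries.

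The 4 small subunit proteins of the chloroplast ribosome lay close together, between 0.48 and 0.55 on the log2 scale, over RPKM levels from 2.63 to 16.3 in the control. The pseudocount narrows this spread. With a pseudocount of 0.1 they ran from 0.49 (S20) to 0.61 (S10). The 30S ribosomal protein 3-1 (Cs7g13090), of a family found in plastids and cyanobacteria, stood at 23.9 in light drought against 16.3 (log2 ratio 0.54, interval 0.43 to 0.68). S20 (Cs1g07980), which binds the RNA of the small subunit, stood at 18.3 against 13.0 (0.48). The 30S ribosomal protein 2 (Cs7g01430), an RNA-binding protein of the plastid ribosome with no bacterial counterpart, stood at 5.09 against 3.35 (0.54). S10 (Cs4g08980), of the head of the small subunit, stood at 4.07 against 2.63 (0.55), and 132 and 88 reads left it the widest interval of the 19, 0.23 to 1.04.

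The ribosome-binding factor PSRP1 (orange1.1t02570, unplaced sequence, 39299473 to 39305363) had the highest log2 ratio of all 35 members, by a margin smaller than its interval, and with a pseudocount of 1 L5 and PSRP1 were both at 0.89. PSRP1 is related to bacterial factors that hold ribosomes in an inactive state. It stood at RPKM 19.1 in light drought against 9.84 in the control, a log2 ratio of 0.92 with an interval of 0.86 to 1.06 from 2406 and 1282 reads, just short of 2-fold. Of its 3965 exon bases, 2081 are shared with a model on the other strand, orange1.1t02569, which stood at 3.52 against 3.01 (log2 ratio 0.20). The labels do not state whether strand was used to assign reads, so the reads of such pairs cannot be told apart.

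Summed over the 16 chloroplast-named ribosomal proteins, PSRP1 included, reads made up 0.0758% of the light drought library and 0.0511% of the control, 24068 and 16806 reads. The log2 ratio of these shares was 0.57, with an interval of 0.54 to 0.60 for counting error. By the same measure the 149 other kept chloroplast-described genes were at -0.06, with 1.21% of reads in light drought against 1.26%. The 31 green tissue genes were at 0.89. RPKM in the control differed 25.3-fold between the most and the least abundant of the 16, while the log2 ratios ran from 0.17 to 0.92 with an SD of 0.21. Among the 19 chloroplast-named members, 3 passed 1.5-fold (PSRP1, L5 and L17), against 4.03% of all kept genes and 31.5% of the other chloroplast-described genes. None of the 19 has statistics in the authors' deposited table, which gives them for 31.9% of its 2568 genes. With 1 library per group, such statistics do not measure variation between trees. All 19 were short of 2-fold, as were nearly all genes without statistics. Of the 1406 kept described genes without statistics, 2 were 2-fold higher and 2 were 2-fold lower. Of all 2055 kept described genes, 123 and 307 were.

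The 3 chloroplast-named members that are factors or a tRNA ligase had smaller ratios than most of the 16 ribosomal proteins. Elongation factor G (EF-G, Cs5g09330, chromosome 5, 6331465 to 6335275), the GTPase that moves the ribosome forward by a codon, was the most abundant member, at RPKM 138 in light drought against 99.7 in the control. The log2 ratio of EF-G was 0.47, with an interval of 0.43 to 0.51 from 11974 and 8926 reads. Initiation factor IF3-4 (Cs4g01980), of the factors that keep the subunits apart before initiation in bacteria, stood at 77.6 against 63.5 (0.29, interval 0.22 to 0.36). A probable alanine-tRNA ligase (Cs8g02100) stood at 7.25 against 5.70 (0.32, interval 0.19 to 0.50). The median of these 3 was 0.32 against 0.50 for the 16 ribosomal proteins, a difference that was not tested. They do not stand for all chloroplast factors. Outside the rule, the chloroplast ribosome-recycling factor (Cs5g31240) was at 0.58, and Cs9g12440, with domains of elongation factors G and Tu, at 0.40.

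**Figure D3:**
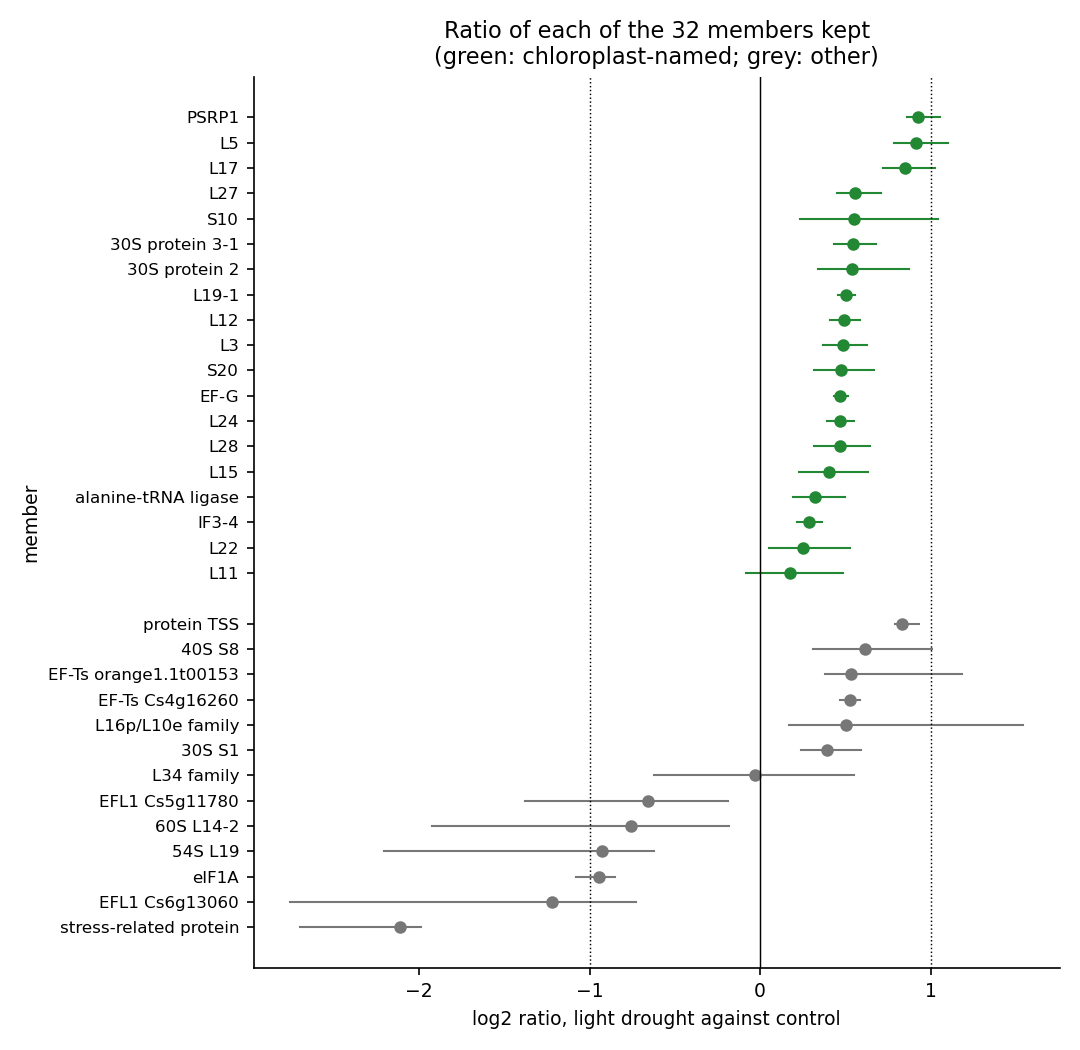
Log2 ratio of light drought against control for the 32 kept members (points, with the pseudocount) and exact 95% counting intervals (lines, without it), chloroplast-named members in green and others in grey, with dotted lines at 2-fold. Green points lie between 0.17 and 0.92, and grey points between -2.11 and 0.83.

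Elongation factor Ts, which reloads elongation factor Tu, is present as a pair of genes that UniProt text calls mitochondrial, and both had ratios like those of the chloroplast-named genes. Cs4g16260 (chromosome 4, 15874754 to 15878175) stood at RPKM 99.9 in light drought against 69.3 in the control (log2 ratio 0.52, interval 0.47 to 0.59). It shares 637 of its 1752 exon bases with Cs4g16250 on the other strand, which stood at 51.3 against 37.3 (0.45). The second, orange1.1t00153, with an S1 RNA-binding domain beside the Ts domain, stood at 1.43 against 0.832 (0.53, interval 0.38 to 1.19). A 30S ribosomal protein S1 with no compartment in its name (orange1.1t02357), of the proteins that hold messages on bacterial ribosomes, stood at 11.3 against 8.49 (0.39).

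The mitochondrial ribosome is represented by the 54S ribosomal protein L19 (Cs1g26630, chromosome 1, 28590278 to 28591261), which lay below the control. It stood at RPKM 0.640 in light drought against 1.67, from 20 and 54 reads. Its log2 ratio was -0.93, with an interval of -2.20 to -0.62. By its Pfam domains and KEGG entry (K02867) this protein is of the same L11 family as the chloroplast L11 Cs5g01230, whose interval of -0.08 to 0.48 does not overlap with it. The authors' deposited table gives Cs1g26630 a log2 fold change of -1.38 with a false discovery rate of 0.0180.

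Of the cytosolic ribosome, 2 proteins were among the members and they went apart. The 40S ribosomal protein S8 (orange1.1t05969), of the small subunit, stood at RPKM 9.89 in light drought against 6.28 (log2 ratio 0.62, interval 0.31 to 1.01). It shares 367 of 557 exon bases with orange1.1t05852 on the other strand, which stood at 5.58 against 4.23. The 60S ribosomal protein L14-2 (orange1.1t00059), of the large subunit, stood at 0.986 against 2.01, from 18 and 38 reads (-0.76, interval -1.93 to -0.18). The authors' deposited table gives it a log2 fold change of -1.02 with a false discovery rate of 0.213. Cytosolic ribosomal proteins are often encoded by several similar genes, and reads may have been split between copies.

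A pair of members matched by initiation factor text also went apart, of which eIF1A alone is named as an initiation factor of the cytosol. Eukaryotic initiation factor 1A (eIF1A, orange1.1t00449, unplaced sequence, 5738404 to 5740137), which helps the small subunit to scan for the start codon, stood at RPKM 17.4 in light drought against 33.9. Its log2 ratio was -0.94, with an interval of -1.08 to -0.85 from 956 and 1930 reads. The fall was just short of 2-fold with the pseudocount and also without it, where the RPKM ratio was 0.512. Protein TSS (Cs4g02190) was matched only by a Pfam domain named for a subunit of initiation factor 3, and other Pfam text of it refers to mitochondrial function. It stood at 21.5 against 11.9 (0.83, interval 0.79 to 0.93). The gene shares 2013 of 6397 exon bases with Cs4g02200 on the other strand, which had a ratio of nearly the same size, 0.81.

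Elongation factor-like GTPase 1, which in yeast finishes the large subunit in the cytosol, was matched by a pair of short gene models. Cs6g13060 (chromosome 6, 14634366 to 14634983) fell from RPKM 2.42 to 0.750, from 40 to 12 reads. Its log2 ratio was -1.22, with an interval of -2.75 to -0.73. The authors' deposited table gives it a log2 fold change of -1.68 with a false discovery rate of 0.0147. Cs5g11780 (chromosome 5, 8872670 to 8873287) stood at 2.15 against 3.68, from 39 and 69 reads (-0.66, interval -1.38 to -0.19). Both models span 618 bases and share a RefSeq entry and a UniProt entry, so reads may have been split between them and each value is uncertain.

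The stress-related protein Cs5g32970, the member matched through the rubber elongation factor, had the lowest log2 ratio of the 35. It fell from RPKM 11.4 to 2.26, a log2 ratio of -2.11 with an interval of -2.70 to -1.99 from 80 and 418 reads. The authors' deposited table gives it a log2 fold change of -2.33 with a false discovery rate of 1.07e-15. With it, 4 of the 35 members have statistics in the authors' deposited table, all with lower values in light drought, where 22.7% of the table's genes have statistics with a lower value. The others are Cs1g26630, Cs6g13060 and orange1.1t00059.

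Members described only by a ribosomal protein family of Pfam had few reads. The L34 family gene Cs1g18070 stood at RPKM 3.98 in light drought against 4.07 in the control, with 50 and 53 reads, and no difference was detectable at this depth (interval -0.62 to 0.55). The L16p/L10e family gene Cs5g25250, which also has a KEGG entry (K02878) under the term Ribosome, stood at 1.00 against 0.560. It had 52 and 30 reads (log2 ratio 0.50, interval 0.17 to 1.54). The 3 members under the expression minimum were the L14p/L23e family gene Cs8g07900, the 13 kDa ribonucleoprotein-associated protein Cs2g28690 and the cytoplasmic asparagine-tRNA ligase 2 (Cs7g16870). They had from 10 to 70 reads per library, none was 2-fold apart, and all 3 intervals included 0.

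The 19 chloroplast-named members are spread over the genome as the files place it, with 3 each on chromosomes 2, 4, 5 and 7, 2 on chromosome 9, 1 each on chromosomes 1, 6 and 8, and 2 on unplaced sequence. The labels do not name the genome build or the species of the gene models. Positions and shared exons may therefore not be those of Citrus unshiu. Exon bases were shared with another model by 6 of the 35 members, each time with a model on the other strand.

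Genes matched to organelle RNA handling also had ratios mostly above 0. Of the 18, 16 were kept, 15 had ratios above 0 and the median was 0.49. Ratios above 0 were found for 43.6% of kept described genes. They were found for 75.8% of the 149 kept chloroplast-described genes outside the members, with a median of 0.45, a set that overlaps with this list. RefSeq names place 5 of the 16 in the chloroplast, all 5 above 0, and 1 in the mitochondrion, and name no compartment for the other 10, of which 9 were above 0. Where 5.99% of kept described genes were 2-fold higher, 1 of the 16 was, Cs3g13840, which rose from RPKM 1.32 to 3.26 (log2 ratio 1.05). RefSeq text names it a pentatricopeptide repeat protein, but its Pfam text holds no such repeat. All 3 kept sigma factors, which guide the bacterial-type RNA polymerase of plastids to promoters, were above 0, among them sigD (Cs7g02120) at 23.4 against 15.2 (0.61). The 28 kDa chloroplast ribonucleoprotein (Cs9g09170), an RNA-binding protein, stood at 3.76 against 1.67 (0.97). Of 4 genes matched to ribosome and rRNA maturation 3 were above 0, with a median of 0.38, and none passed 2-fold. One of the 3, Cs5g31320, is named as a membrane GTPase and was a chance match through the name of a Pfam domain. The list also holds the chloroplast ribosome-recycling factor (Cs5g31240), which splits ribosomes after termination, at 24.7 against 16.4 (0.58). The lists of translation accessories and of plastid protein fate kept 1 gene each, with ratios of 0.58 and 0.39. The first, orange1.1t00576, is named as a thylakoid protein and was matched through a Pfam domain that refers to tRNA synthetases.

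**Figure D4:**
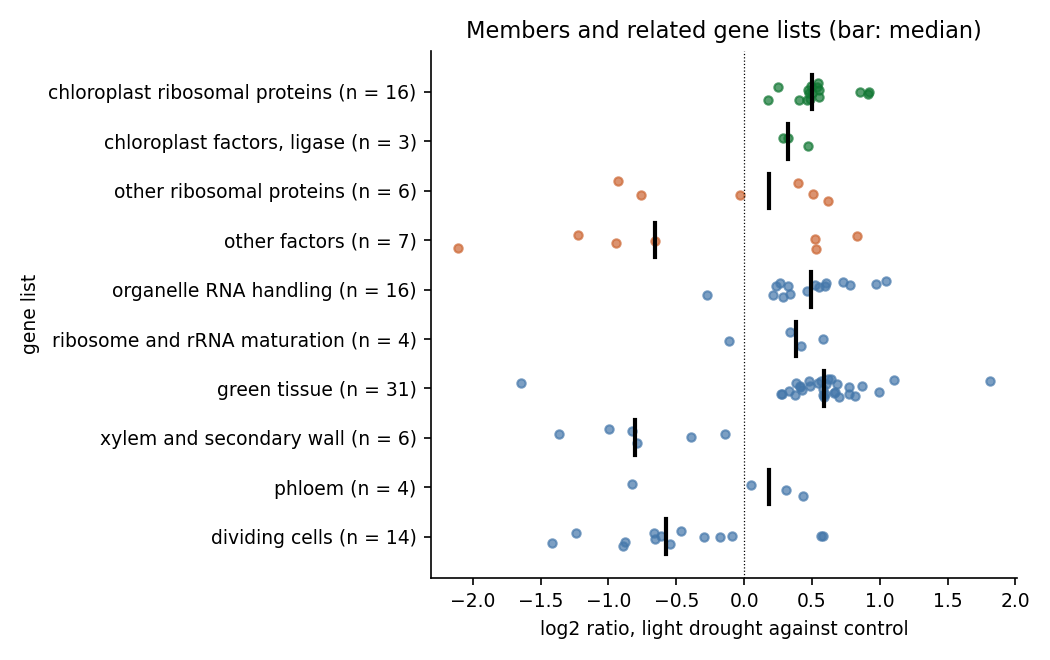
Log2 ratio of light drought against control for kept members in 4 groups and for kept genes of 6 related lists (points; vertical spread has no meaning) with the median of each (bar). The medians of chloroplast ribosomal proteins, organelle RNA handling and green tissue lie at 0.50, 0.49 and 0.59, and those of xylem and dividing cells at -0.81 and -0.58.

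Markers of tissue composition differed between the libraries too. For comparison, 43.6% of the 2055 kept described genes had ratios above 0 and 56.4% below. Of 31 genes matched to green tissue, 30 had ratios above 0, with a median of 0.59, and none was at 0 in either library. The exception was the only Rubisco small subunit gene of the list (Cs4g03580), which fell from RPKM 23.9 to 7.30 (log2 ratio -1.64). The summed RPKM of the 31 was 2196 in light drought against 1083 in the control. Without early light-induced protein 1 (Cs9g07670) it was 1077 against 766. All 6 kept xylem and secondary wall genes had ratios below 0, with a median of -0.81 and a summed RPKM of 68.3 against 114. They are fasciclin-like proteins and cellulose synthase A subunits 1 and 2, known for the primary wall, at RPKM 30.5 against 40.2 and 21.3 against 42.9, and no laccase was matched. Fasciclin-like protein 11 (Cs6g04310), known from secondary walls, had a ratio of -0.14 with an interval of -0.83 to 0.42. Of 4 phloem genes 3 were above 0 (median 0.18, summed RPKM 7.70 against 6.77). Of 22 genes matched to dividing cells 14 were kept, of which 12 were below 0 (median -0.58, summed RPKM 53.3 against 56.7). The counting interval lay below 0 for 8 of the 14 and included 0 for 4. Of the 2 above 0, 1 is the ribosome-recycling factor, a chance match of the text. Without it the summed RPKM was 28.6 against 40.4. The part of tissue composition in the ratios of the chloroplast-named members was not tested.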

How the data were processed

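RNA-seq was compared between 1 control and 1 light drought library. RNA was extracted with TRIzol and prepared with a stranded mRNA kit, per the labels' protocols, and the submitters' processing notes list Trimmomatic 0.36. For the aligner, counter, build and strand setting, nothing is given in the sources used here. RPKM values were deposited by the authors for 23159 gene models. The product of RPKM and the deposited exon length was a whole number of reads, to 0.01 read, in 100% of non-zero values, and totals and intervals came from these reads. In a described table of 2568 genes, 820 have a log2 fold change, a p-value and a rate of false discovery deposited by the authors, by a test that is not given. Why the others are listed is not given either. With 1 library per group, the deposited rates have no replicate error behind them.

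Members were found by text in 3 description columns, and roles were assigned by name. Members and lists were chosen with earlier results of these data known. All 32 members with RPKM of at least 1 are named, and those below by count and range. A pseudocount of 0.5 was used. The interval computation was run on simulated independent counts, which follow the assumption of the interval. That checks the code, and cannot show how well the intervals hold for these reads. Alternatives were other pseudocounts, minimums, thresholds, scalings and text matches. With 1 library per group no test was possible. Intervals cover counting error only. Reads were not tied to single molecules by identifiers, so the intervals may be too narrow even for that. Computations used Python 3.11.15, numpy 2.4.6, pandas 2.3.3, scipy 1.17.1 and matplotlib 3.10.9.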

Additional observations from a re-analysis of the deposited data

How the results depend on the processing

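No paired analysis was possible because there is 1 library per group, which also leaves none to omit. The median of the chloroplast-named ribosomal proteins ran from 0.46 (rescaled to equal sums) to 0.50 over the alternatives. That of the other ribosomal proteins was 0.18 and changed sign, to -0.18 with a RefSeq match alone and -0.04 with a median ratio of 1. It was 0.36 with equal sums, 0.45 with a wider text match and 0.50 at a minimum RPKM of 5, where the chloroplast-named ribosomal proteins were also at 0.50. That of factors and ligases was 0.30, and -0.80 with a RefSeq match alone, which drops 5 of its higher members. The 2 members 2-fold lower became 1 with a pseudocount of 1, a minimum RPKM of 5, a RefSeq match alone or without members that are no part of translation, and 3 with a pseudocount of 0.1 or equal sums. At 1.5-fold, 5 of the 32 were higher and 6 lower. Among kept described genes 18.7% were higher and 33.3% lower, and among all kept genes 4.03% and 6.16%. A wider text match, chosen after seeing the data, gave 1 that was 2-fold higher. Single members gave 235 values across the settings, of which 234 shifted by less than 0.5 times the width of the counting interval, the exception being EF-G at 0.43 with equal sums, and none changed sign. Equal sums shifted all genes by -0.04. Depth limits members with few reads most, such as Cs6g13060 with 12 in light drought.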

Other observations

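Genes of translation that the text rule missed were looked up after the data were seen, through broader words in the descriptions. The largest ratio among them belonged to a gene described as a ubiquitin and ribosomal S27 domain protein (Cs8g15830), of the fusion genes that yield ubiquitin and a protein of the cytosolic small subunit. It rose from RPKM 46.7 to 95.1, a log2 ratio of 1.02 with a counting interval of 0.92 to 1.13, and the authors' deposited table gives it a log2 fold change of 1.02 with a false discovery rate of 6.77e-05. An L21 family gene (Cs3g22380) stood at 11.2 in light drought against 7.69 (0.52), and an L18 family gene (Cs5g20790) at 12.8 against 8.81 (0.52), both of the bacterial type by their Pfam text.

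Other genes found in this way, not all of them translation factors by their descriptions, also stood above the control. The genes listed here and in the paragraph above are a selection made with the data known. How many matches lay below the control was not counted. Of the kept described genes, 43.6% had ratios above 0. Cs9g12440, with domains of elongation factors G and Tu, was at RPKM 34.9 in light drought against 26.4 (log2 ratio 0.40). The chloroplast signal recognition particle protein (Cs6g14460), which guides proteins to the thylakoid, was at 129 against 90.1 (0.52). A NusG family gene (Cs6g07460) was at 35.9 against 25.5 (0.48). Cs4g16270, the next model after the elongation factor Ts gene Cs4g16260 by its number, with an S1 RNA-binding domain, was at 32.0 against 25.2 (0.34). Subunit C of the glutamyl-tRNA(Gln) amidotransferase (Cs4g18940), which helps to load glutamine tRNA in organelles, was at 2.21 against 1.19, from 59 and 33 reads (0.68, interval 0.25 to 1.55).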
